A study of Mus musculus with 6 samples.

Results

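Chemokines, interleukins and their receptors were measured in sciatic nerves of mouse pups in which the histone deacetylase genes Hdac1 and Hdac2 had been deleted in Schwann cells, the glia that myelinate peripheral axons. The gene set was chosen by name: symbols of the Ccl, Cxcl, Ccr, Cxcr, Il and Il receptor series, together with Csf1, Lif and Tnf and without Il1b, Il18 and Il33. Of 18194 genes with a single symbol on the array, 108 met this rule, and 62 of them had a log2 value of at least 4 (the low-value limit) on 3 or more of the 6 arrays and were tested among 14550 genes. The double knockout group (dKO) held 3 samples with the genotype DhhCre+ HDAC1-2 dKO, in which Cre recombinase is driven by the desert hedgehog gene Dhh. The control group held 3 samples of littermates labelled DhhCre–, and the labels do not say which Hdac alleles they carried. All samples came from mixed-strain pups on postnatal day 2, after removal of the perineurium, and each was hybridised to 1 Affymetrix Mouse Genome 430 2.0 array. The comparison asks how loss of both deacetylases in Schwann cells alters nerve gene expression as myelination begins.

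Chemokines are small secreted proteins that guide leukocytes and other motile cells through G protein-coupled receptors, and their classes are named after the spacing of conserved cysteines. Interleukins act through receptor chains that are often shared, mostly coupled to JAK kinases and STAT factors or, in the Il1 and Il17 families, to adaptors that lead to NF-kB. In injured adult nerves such signals recruit macrophages, whereas in development Csf1 and Il34 sustain tissue macrophages through their common receptor Csf1r.

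Values are deposited log2 expression. Changes are differences of group means, dKO minus control, given with the standard error (SE) for n = 3 per group. A gene is called when its limma adjusted p, taken over all 14550 genes, is under 0.05. Probes differ in brightness, so a value is a signal of its probe set, and no gene's abundance is ranked against another's. Hdac1 measured 8.75, 8.97 and 8.85 in dKO 1, 2 and 3, against 10.48, 10.38 and 10.36 in control 1, 2 and 3. Hdac2 measured 11.22, 10.81 and 11.19 in dKO samples, against 12.34, 12.33 and 12.33 in control samples. Both targeted genes were lower on every dKO array (changes -1.55 and -1.26, adjusted p = 0.000271 and 0.00103), although the labels do not say whether these probe sets lie in the deleted part. Of 12 Schwann cell lineage markers, 10 were named on the array and all 10 were above the limit. The 4 perineurial markers were also above it although the perineurium had been removed. Their summed level was 11.01 to 11.36 in dKO and 10.49 to 10.54 in control nerves on the log2 scale. Most of the control sum came from Slc2a1 (10.41, 10.31 and 10.07 in control 1, 2 and 3). Ocln lay under 4 in control 1 and control 2 (3.93 and 3.89).

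Of 62 members tested, 10 were called (16.1%), against 22.0% of all genes tested. In dKO nerves 8 members were lower, or 12.9% of those tested against 9.38% of all genes, and 2 were higher, or 3.23% against 12.6%. With the limit set to 6 the calls were 4 of 22 members, against 2979 of 10530 genes. Of those 4 members, 2 were lower and 2 higher. The 8 lower members at the limit of 4 were Il16, Cxcl14, Cxcl11, Il17rb, Il17b, Il34, Ccl22 and Cxcl17. The 2 higher ones were Il17rd and Csf1. The dKO and control values did not overlap for 22 members (35.5%), against 40.9% of all genes. The median change of the 62 was -0.10, against 0.006 over all genes, but it was 0.074 with a limit of 6 and -0.009 without dKO 1. The changes of 47 members were under 0.5 in size. Calls were also counted by the brightness of the probe sets. The probe sets of 40 of 62 members had a mean signal under log2 6 (64.5%, against 29.3% of all genes), which describes the probe sets and not the abundance of the transcripts. Among genes with such signals, 6 of the 40 members were called (15.0%, against 13.8% of all such genes), and among brighter genes 4 of 22 (18.2%, against 25.4%).

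**Figure D1:**
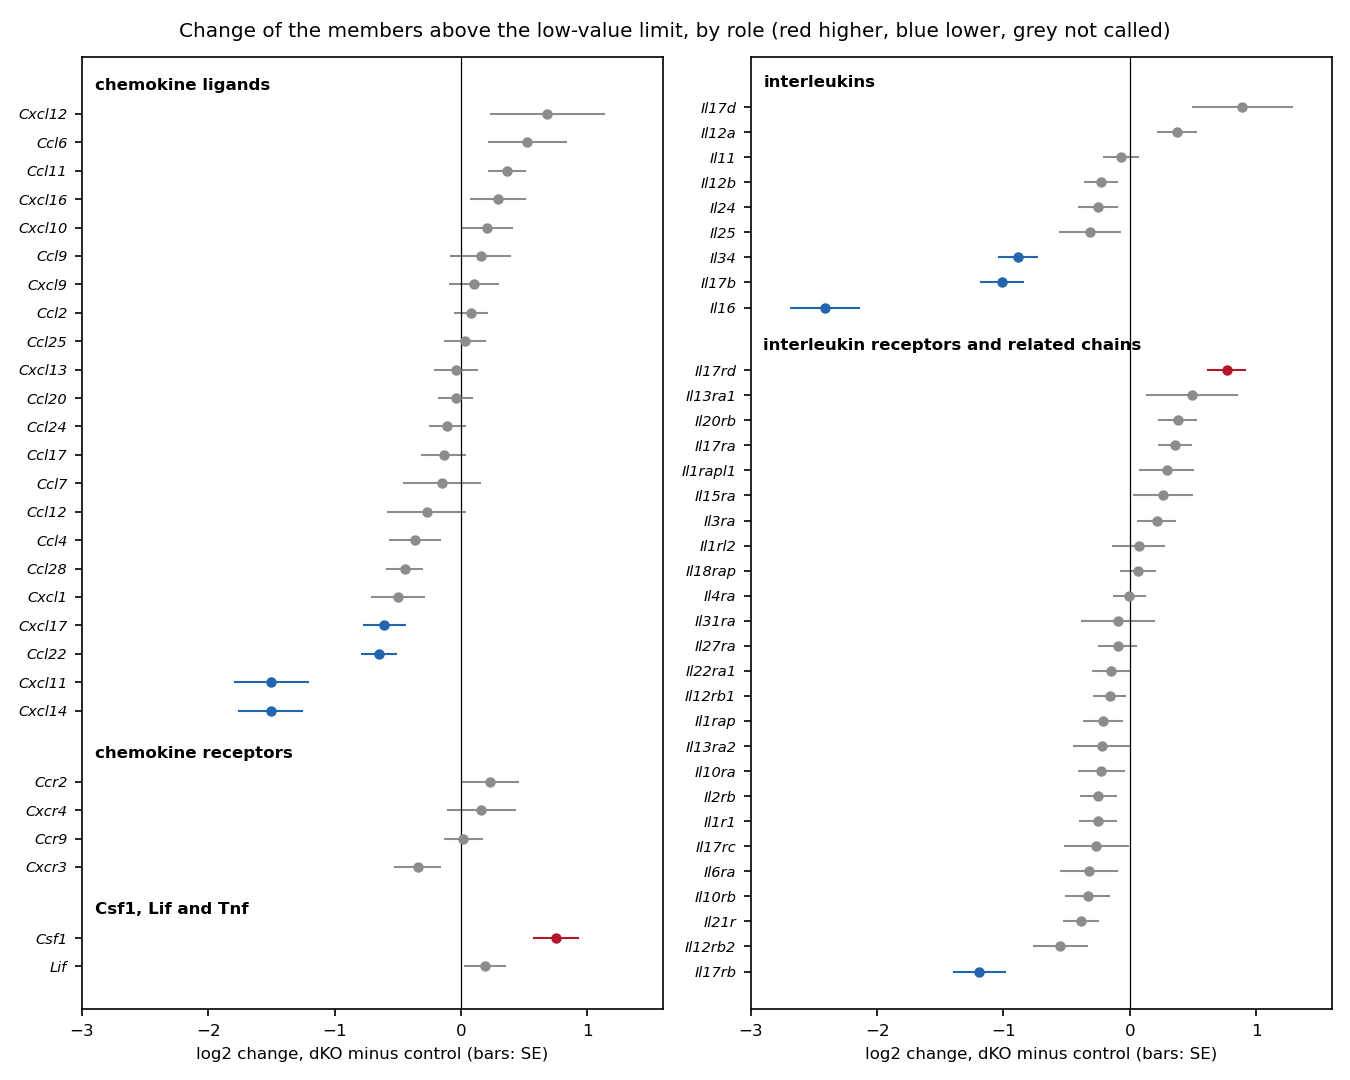
Change in dKO minus control nerves (log2, horizontal axis) of the 62 tested members by role, with bars for the SE and n = 3 arrays per group. The 8 members called lower (blue) run from -2.41 to -0.61 and the 2 called higher (red) lie at 0.75 and 0.77.

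The 46 members under the limit included Tnf, Il1a, Il6, Il10, Ccl5 and Cxcl2, which encode widely studied inflammatory mediators, and 10 of the 14 chemokine receptor genes. Of these 46 members, 41 had no array at or above 4, and the highest single value was 4.24 for Ccr10 in dKO 3. Just inside the limit, with 4 arrays at or above it, stood Ccl20, Il12a, Il2rb and Il34, with means of 4.01, 4.02, 4.17 and 4.33. Just outside, with 2 arrays, were Ccr10 and Il17re, with means of 3.91 and 3.86. A dim probe set does not show that a gene is silent.

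The upstream sequences of the called genes with a single entry in the RefSeq promoter table (build GRCm38.p6) are shown because genes that fell and genes that rose can be set side by side. Of the 10 called genes 5 had 1 entry: Cxcl14, Ccl22 and Il17rb, which were lower in dKO, and Il17rd and Csf1, which were higher. Each is the 250 bases before the start site, 5′ to 3′ on the gene's strand, with matches in capitals to the GC box GGGCGG, to the AP-1 motif TGANTCA and to an NF-kB-like motif (GGG, any pair of bases, then TTTCC), all searched on both strands.
Cxcl14, chr13:56296552-56296801, minus strand: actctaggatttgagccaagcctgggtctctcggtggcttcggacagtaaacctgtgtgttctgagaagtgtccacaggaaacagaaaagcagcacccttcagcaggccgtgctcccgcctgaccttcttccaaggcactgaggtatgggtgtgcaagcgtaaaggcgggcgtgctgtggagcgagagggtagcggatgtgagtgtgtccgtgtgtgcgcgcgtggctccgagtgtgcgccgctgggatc
Ccl22, chr8:94745434-94745683, plus strand: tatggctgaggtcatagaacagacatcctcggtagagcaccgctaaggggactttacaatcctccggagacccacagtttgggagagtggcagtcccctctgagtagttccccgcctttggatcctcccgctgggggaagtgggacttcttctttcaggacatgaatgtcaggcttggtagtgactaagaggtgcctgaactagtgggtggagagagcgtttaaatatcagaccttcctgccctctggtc
Il17rb, chr14:30008897-30009146, minus strand: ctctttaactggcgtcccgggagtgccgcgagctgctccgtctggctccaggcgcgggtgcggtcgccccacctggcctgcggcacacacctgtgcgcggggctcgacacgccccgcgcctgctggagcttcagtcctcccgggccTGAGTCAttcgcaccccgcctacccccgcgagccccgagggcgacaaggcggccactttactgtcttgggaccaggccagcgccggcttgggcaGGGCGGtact
Il17rd, chr14:27038751-27039000, plus strand: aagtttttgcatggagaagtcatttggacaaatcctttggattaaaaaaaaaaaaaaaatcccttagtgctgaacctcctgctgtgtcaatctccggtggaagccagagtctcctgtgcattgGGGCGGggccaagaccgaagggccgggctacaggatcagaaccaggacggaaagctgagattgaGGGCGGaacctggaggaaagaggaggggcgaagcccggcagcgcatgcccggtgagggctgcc
Csf1, chr3:107760470-107760719, minus strand: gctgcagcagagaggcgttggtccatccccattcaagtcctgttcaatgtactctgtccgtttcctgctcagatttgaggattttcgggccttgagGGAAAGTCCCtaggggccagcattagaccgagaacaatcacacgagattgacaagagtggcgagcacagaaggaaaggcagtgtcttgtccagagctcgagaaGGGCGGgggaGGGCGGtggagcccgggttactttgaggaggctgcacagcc

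The GC box stood 2 times each in the Il17rd and Csf1 sequences and 1 time in that of Il17rb, and 32.7% of the 32851 promoters in the table hold it within the same 250 bases. The AP-1 motif was found 1 time, upstream of Il17rb, as TGAGTCA, which also matches the motif on the other strand (6.7% of all promoters). The NF-kB-like motif was found 1 time, upstream of Csf1, on the minus strand of the window (1.4% of all promoters), and no motifs overlapped. The Cxcl14 and Ccl22 windows held no match. CG dinucleotides numbered 16, 6 and 27 upstream of Cxcl14, Ccl22 and Il17rb, and 10 each upstream of Il17rd and Csf1, against a median of 6 over all promoters. These matches are descriptions of sequence and not sites of binding.

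Il16 had the largest change of the called members. This gene encodes a precursor protein with PDZ domains, from which a chemoattractant that binds CD4 is released. It measured 7.53, 6.80 and 6.59 in dKO samples, against 9.64, 9.53 and 8.98 in control samples. Every dKO value lay more than 1 log2 unit under every control value, and the change was -2.41 (SE 0.27, adjusted p = 0.000756), a 5.32-fold lower level. The second brightest of its 4 probe sets changed by -2.64 and a dim one by -0.96, both called when adjusted over probe sets, whereas 1 with a mean of 5.26 changed by -0.28 and did not pass. With the 4 averaged the change was -1.57. In RNA of a whole nerve, fewer cells of a type cannot be told apart from less RNA per cell. Cd4, which encodes the receptor, changed by -0.26 on the log2 scale with overlapping groups (SE 0.15, adjusted p = 0.272).

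**Figure D2:**
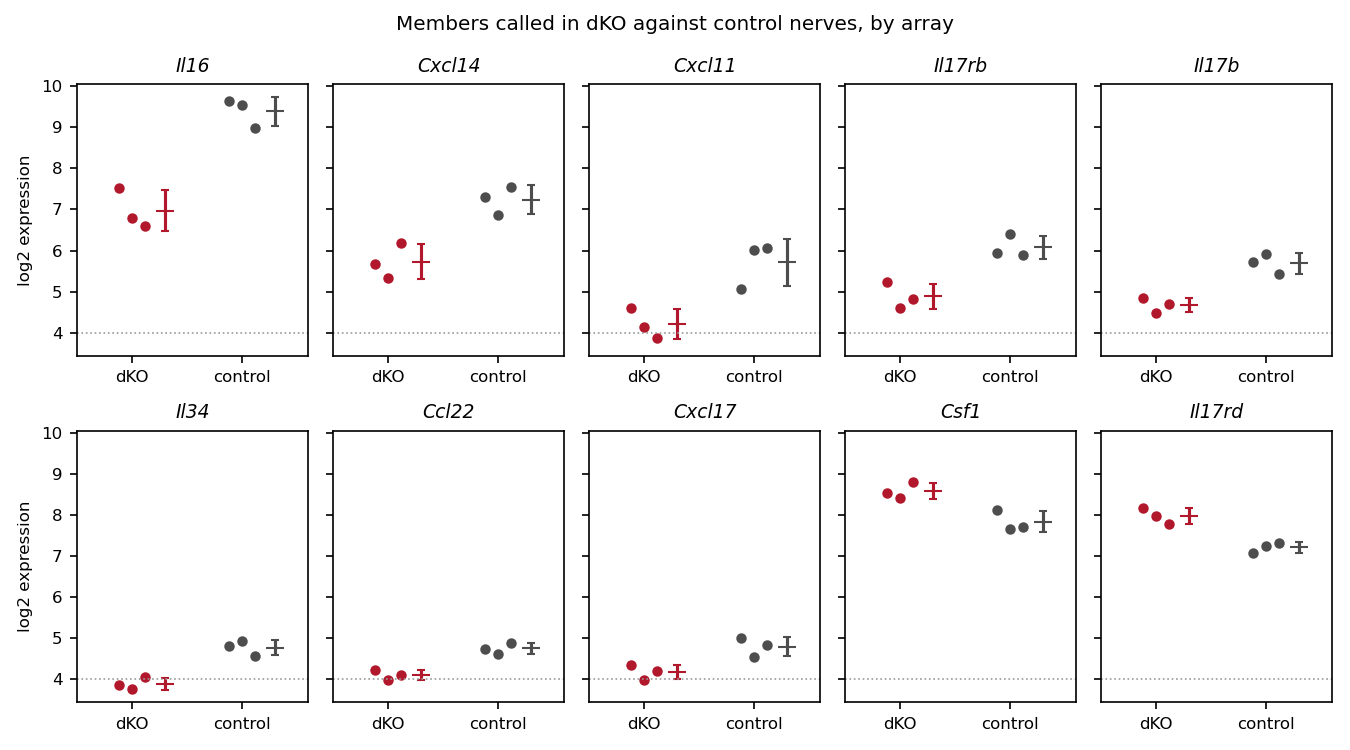
Log2 expression of the 10 called members on each array (points, replicates 1 to 3 from left to right in each group), with the group mean and SD beside the points and the low-value limit of 4 as a dotted line. In each panel the dKO values (red) and the control values (grey) do not overlap. Il34 lies under the limit in dKO 1 and dKO 2, Ccl22 and Cxcl17 in dKO 2, and Cxcl11 in dKO 3.

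Of 22 chemokine ligands tested, among 30 in the set, 4 were called, all lower in dKO nerves (18.2%, against 22.0% of all genes called and 9.38% called lower). The count was 2 without dKO 2 or without control 3, and 1 with a limit of 6. Cxcl14, a constitutively secreted CXC chemokine best known from epithelia, measured 5.67, 5.34 and 6.18 in dKO samples, against 7.30, 6.86 and 7.56 in control samples. Its change was -1.51 (SE 0.26, adjusted p = 0.00439), a 2.84-fold lower level. Its dimmer probe set changed by -0.86 and did not pass (adjusted p = 0.130). The groups did not overlap on the brighter probe set and overlapped on the dimmer one.

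Cxcl11, an interferon-inducible ligand of Cxcr3, measured 4.61, 4.15 and 3.88 in dKO samples, against 5.05, 6.01 and 6.07 in control samples. The change was -1.50 (SE 0.30, adjusted p = 0.00927), and with the dKO 3 value set to the limit Cxcl11 was 2.75-fold lower. Its other probe set was under the limit (mean 2.89) and changed by -0.12. The other ligands of Cxcr3, and the receptor gene itself, were not called. Cxcl10 measured 7.88, 8.10 and 7.84 in dKO samples, against 7.56, 7.47 and 8.16 in control samples (change 0.21, SE 0.20, adjusted p = 0.515, and 0.08 to 0.42 with 1 array left out). Cxcl9 changed by 0.10 (adjusted p = 0.752) and Cxcr3 by -0.34 (adjusted p = 0.236, and -0.21 without dKO 3 or control 2), with overlapping groups. The sign for Cxcl9 turned without dKO 3 (-0.02) or control 1 (-0.08).

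Ccl22, a ligand of Ccr4 made mainly by dendritic cells and macrophages, measured 4.22, 3.97 and 4.11 in dKO samples, against 4.74, 4.62 and 4.89 in control samples. The groups did not overlap, but all values lay within 1 unit of the limit, and the change was -0.65 (SE 0.14, adjusted p = 0.0144). That call was lost without dKO 2 (adjusted p = 0.0590) or control 3 (0.0549). Ccl17, the other ligand of Ccr4 and separated from Ccl22 by 1 protein-coding gene in the RefSeq order, changed by -0.14 (adjusted p = 0.624), or by -0.01 without dKO 1.

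Cxcl17, a chemokine-like protein of mucosal surfaces, had values of 4.34, 3.995 and 4.21 in dKO samples, against 4.995, 4.54 and 4.83 in control samples. Its change of -0.61 (SE 0.17, adjusted p = 0.0366) lost its call when dKO 1, dKO 2, dKO 3, control 1 or control 3 was left out (adjusted p from 0.0540 to 0.12).

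The 18 chemokine ligands that were not called changed by -0.50 to 0.68. Ccl28, a mucosal chemokine, had groups that did not overlap, with 5.20, 5.29 and 5.19 in dKO samples, against 5.68, 5.47 and 5.86 in control samples (change -0.44, SE 0.15, adjusted p = 0.0672). Ccl11, the eosinophil chemoattractant eotaxin, measured 8.90, 8.97 and 9.28 in dKO samples, against 8.74, 8.62 and 8.70 in control samples. These groups did not overlap either, and the change of 0.36 (SE 0.15) had an adjusted p of 0.125. The monocyte attractant Ccl2 had a change of 0.08 (SE 0.14, adjusted p = 0.726) and its receptor gene Ccr2 one of 0.23 (SE 0.23, adjusted p = 0.519). With 1 array left out these ran from 0.03 to 0.16 for Ccl2 and from 0.03 to 0.36 for Ccr2, both lowest without dKO 3. Ccl25, a thymic and gut chemokine, changed by 0.03 (SE 0.16, adjusted p = 0.910), a sign that turned when its probe sets were averaged (-0.32), when arrays were centred (-0.04) or without dKO 3 (-0.11).

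Cxcl12, the homeostatic chemokine that binds Cxcr4 and the scavenging receptor Ackr3, measured 9.68, 10.02 and 10.86 in dKO samples, against 8.48, 10.15 and 9.88 in control samples. The groups overlapped and the change of 0.68 (SE 0.45, adjusted p = 0.331) was 0.17 without control 1 and 0.35 without dKO 3. The other 2 probe sets changed by -0.07 and -0.35. Cxcr4 measured 6.86, 7.24 and 7.83 in dKO samples, against 7.53, 7.07 and 6.85 in control samples. These groups overlapped too, and the change of 0.16 (SE 0.27, adjusted p = 0.719) turned to -0.10 without dKO 3. Ackr3 measured 9.99, 10.05 and 10.03 in dKO samples, against 8.98, 9.28 and 9.98 in control samples (change 0.61, SE 0.24, adjusted p = 0.114). Control 3 lay just under the dKO values, and among the alternatives run it was called without control 3 (change 0.89) and in no other.

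Of the 4 chemokine receptor genes tested, Ccr2, Ccr9, Cxcr3 and Cxcr4, limma called 0 (against 22.0% of all genes), and 0 had an unadjusted p under 0.05. Their changes were -0.34 to 0.23 and their lowest adjusted p was 0.236. Ccr9, the receptor gene for Ccl25, changed by 0.02 (adjusted p = 0.944), a sign that turned with centred arrays (-0.06), without dKO 3 (-0.07) or without control 3 (-0.07).

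**Figure D3:**
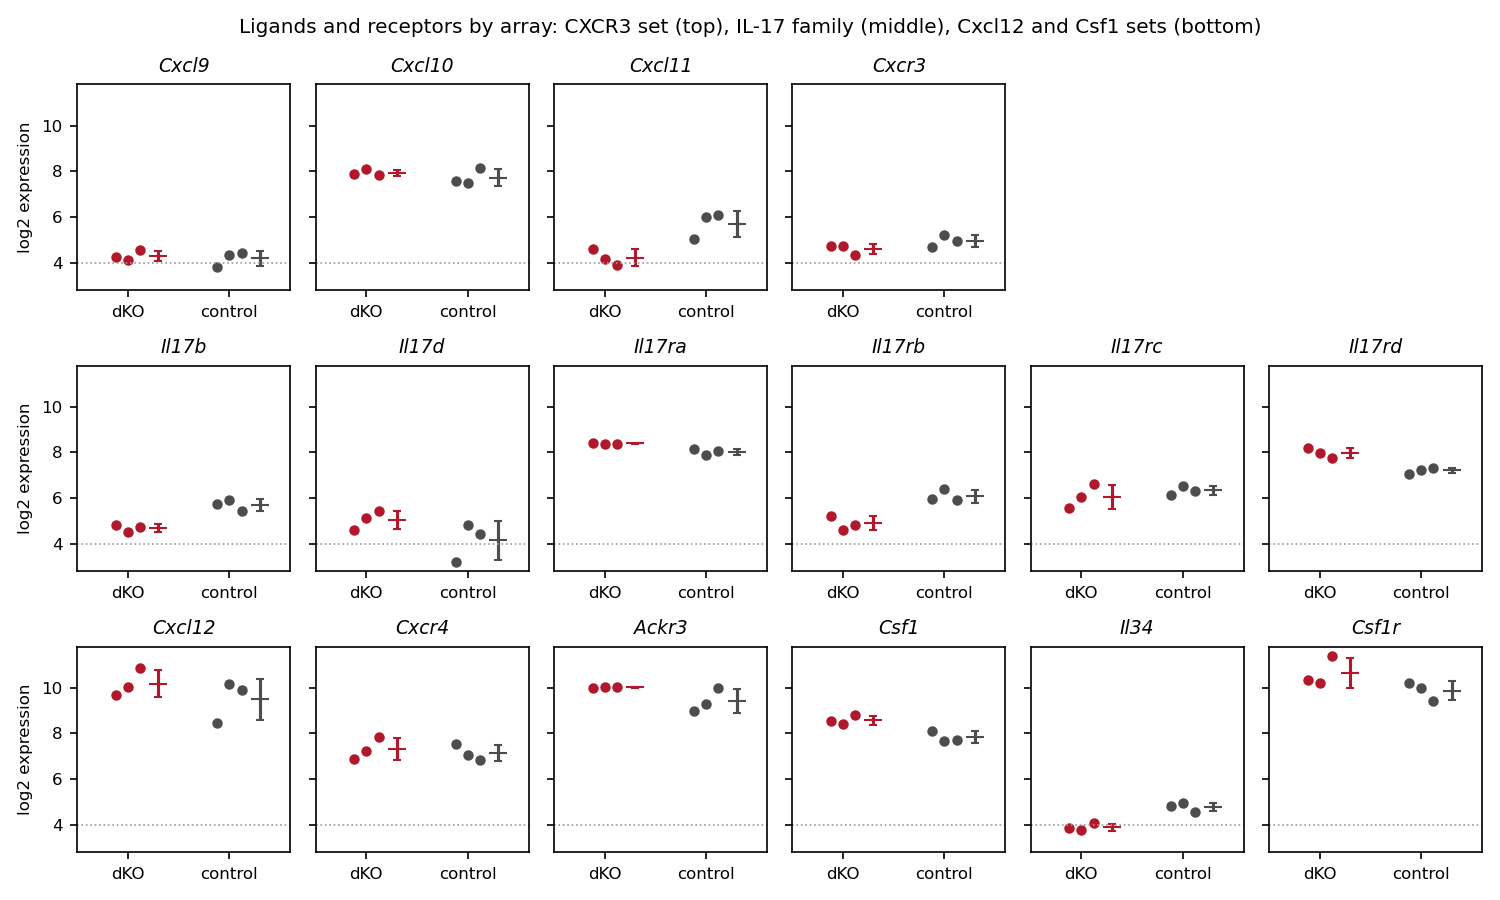
Log2 expression by array (points, replicates 1 to 3 from left to right) of ligands and receptors, with mean and SD and the limit of 4 dotted. Rows show Cxcr3 with its ligands, the Il17 family, and the Cxcl12 and Csf1 receptor sets. Il17b and Il17rb are lower in dKO on every array, Il17rd and Csf1 are higher, and Cxcl10, Cxcl12 and Cxcr4 overlap between the groups.

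Within the Il17 family a ligand and its receptor were both lower in dKO nerves. Il17b, whose protein binds the receptor chain Il17rb, measured 4.84, 4.49 and 4.71 in dKO samples, against 5.73, 5.92 and 5.42 in control samples (change -1.01, SE 0.17, adjusted p = 0.00479). Il17rb, which also pairs with Il17ra to bind Il25, measured 5.22, 4.61 and 4.82 in dKO samples, against 5.94, 6.40 and 5.90 in control samples (change -1.19, SE 0.21, adjusted p = 0.00511). Both genes are represented by 1 probe set, and both calls were kept in each alternative in which the gene was tested.

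Il17rd was higher. It encodes a membrane protein related to these receptors that is known as an inhibitor of fibroblast growth factor signalling. It measured 8.18, 7.98 and 7.78 in dKO samples, against 7.07, 7.25 and 7.31 in control samples (change 0.77, SE 0.16, adjusted p = 0.0101), a 1.70-fold higher level. Its dimmer probe set changed by 0.90 and was also called. The shared chain Il17ra measured 8.41, 8.38 and 8.38 in dKO samples, against 8.14, 7.89 and 8.07 in control samples. Those groups did not overlap, but the change of 0.36 (SE 0.13) had an adjusted p of 0.0991. Il17rc changed by -0.27 (SE 0.26, adjusted p = 0.507), with overlapping groups, and by -0.01 without dKO 1 or -0.53 without dKO 3. Il17d measured 4.60, 5.11 and 5.41 in dKO samples, against 3.19, 4.82 and 4.44 in control samples (change 0.89, SE 0.40, adjusted p = 0.159), and the change was 0.41 without control 1.

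Both ligands of Csf1r were called, in opposite directions. Csf1, the main growth factor of macrophages, measured 8.54, 8.41 and 8.80 in dKO samples, against 8.12, 7.66 and 7.70 in control samples (change 0.75, SE 0.18, adjusted p = 0.0197). That is a 1.69-fold higher level, called on 2 of its 4 probe sets (changes of 0.75, 0.65, 0.32 and 0.07). With the 4 averaged the change was 0.45. The call was lost without dKO 1, control 2 or control 3 (adjusted p 0.0521, 0.0743 and 0.0639). Il34 measured 3.86, 3.76 and 4.05 in dKO samples, against 4.81, 4.94 and 4.57 in control samples (change -0.88, SE 0.16, adjusted p = 0.00535). It was under the limit in dKO 1 and dKO 2, and with those values set to it Il34 was 1.69-fold lower. Csf1r itself measured 10.33, 10.19 and 11.40 in dKO samples, against 10.20, 10.01 and 9.43 in control samples. These groups overlapped and the change was 0.76 (SE 0.34, adjusted p = 0.151), or 0.38 without dKO 3.

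Some macrophage markers were higher in the same dKO nerves. Of 16 such markers 14 were above the limit, and 4 were called, all higher (against 12.6% of all genes called higher). The called ones were Aif1, C1qa, C1qc and Tyrobp, with changes of 1.06, 0.84, 1.14 and 0.92. Calls of all but C1qa were lost without some arrays (adjusted p up to 0.136). Among the 14 tested markers 13 had positive changes (against 7352 of 14550 genes), and for 8 the groups did not overlap (against 40.9% of all genes). The summed level of all 14 was 12.25 to 13.41 in dKO and 11.68 to 11.91 in control nerves on the log2 scale, with the top value in dKO 3. Itgam and Cd14 were under the limit. The lymphocyte, neutrophil and mast cell lists had 7 of 11, 4 of 8 and 5 of 9 named markers above the limit. From these lists limma called 0, against 22.0% of all genes. At an unadjusted p under 0.05, Kit of the mast cell list was lower (change -0.52) and 0 of the other markers passed. Their summed levels were 7.24 to 7.61, 7.11 to 7.97 and 6.94 to 7.12 in dKO, and 7.37 to 7.51, 6.96 to 7.40 and 6.96 to 7.30 in control nerves. The lymphocyte gene Cd3e, the neutrophil genes Mpo and Elane and the mast cell genes Mcpt4 and Fcer1a were under the limit. The part of these cells in the changes of the cytokine genes was not tested.

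One dKO array carried higher values of many members. Within the dKO group, dKO 3 had the highest value for 39 of 62 members (62.9%, against 50.0% of all genes). Ccl6, a chemokine of myeloid cells, measured 5.47, 5.64 and 6.77 in dKO samples, against 5.52, 5.34 and 5.44 in control samples. Il13ra1, a chain of the receptor for Il4 and Il13, measured 6.40, 6.84 and 7.97 in dKO samples, against 6.30, 6.59 and 6.84 in control samples. Neither passed the test, and without dKO 3 their changes of 0.53 and 0.49 shrank to 0.12 and 0.04. Dimmer Il13ra1 probe sets above the limit differed in this. dKO 3 was the lowest dKO array on those that changed by 0.32 and 0.50, and the highest on that which changed by 0.10.

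The remaining interleukins and receptors were not called. Of 9 interleukins 3 were called, all lower (33.3%, against 9.38% of all genes called lower), or 1 with a limit of 6, and the other 6 changed by -0.32 to 0.89. Il12a and Il12b, which encode subunits of the same secreted heterodimer, had separated groups with changes of 0.37 and -0.23 (adjusted p = 0.142 and 0.272), and Il24, of the Il10 cytokine family, a change of -0.25 (adjusted p = 0.310). Of 25 receptor genes 1 was called higher and 1 lower (4% each, against 12.6% and 9.38% of all genes), and the other 23 changed by -0.55 to 0.49. Groups did not overlap for 9 of the 25 (36.0%, against 40.9% of all genes). Besides Il17ra, 6 of those not called were among them. Il12rb1 and Il12rb2, which form the receptor for Il12, changed by -0.16 and -0.55 (adjusted p = 0.437 and 0.116). Il10rb and Il20rb, chains of receptors for the Il10 family, changed by -0.34 and 0.38 (adjusted p = 0.227 and 0.124). Il21r, the receptor of a T cell cytokine, changed by -0.39 (adjusted p = 0.0938), and Il1r1, the signalling receptor of Il1, by -0.25 (adjusted p = 0.277). With 1 array left out the changes came down to -0.17 for Il10rb (without control 2), -0.34 for Il12rb2 (without dKO 3), -0.11 for Il24 (without control 1) and -0.15 for Il1r1 (without dKO 1). Il1rap, the co-receptor of the Il1 family, changed by -0.21 (SE 0.16, adjusted p = 0.390, and -0.34 to -0.14 with 1 array left out), while another of its probe sets was called lower at -0.57. Il15ra, the chain that presents Il15, changed by 0.26 (adjusted p = 0.476), or by -0.02 without dKO 2, while its dimmer probe set was called higher at 0.88. Lif, a cytokine of the gp130 family, measured 4.61, 4.60 and 5.01 in dKO samples, against 4.66, 4.57 and 4.43 in control samples (change 0.19, adjusted p = 0.450, and 0.06 without dKO 3).

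**Figure D4:**
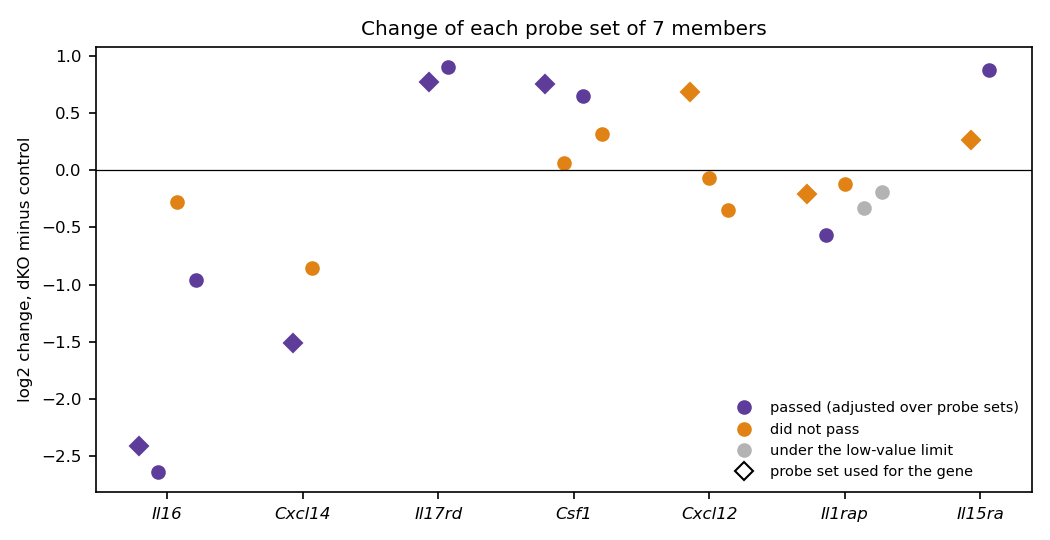
Change in dKO minus control nerves (log2, vertical axis) of every probe set of 7 members with several, where diamonds are the probe set used for the gene and purple marks those that passed when adjusted over probe sets. The Il16 sets run from -2.64 to -0.28, the Csf1 sets from 0.07 to 0.75, and the Cxcl12 sets lie on both sides of 0.

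Genes that carry cytokine signals were described from 5 lists outside the name rule. The gp130 family list, receptors and ligands that share or resemble the signalling chain Il6st, had the highest median. All 8 of its tested genes had positive changes (against 7352 of 14550 genes), with a median of 0.62. Of the 8, 4 were called, all higher (against 12.6% of all genes called higher). Lepr, the leptin receptor gene, measured 9.35, 9.10 and 9.47 in dKO samples, against 5.75, 6.87 and 8.28 in control samples (change 2.34, SE 0.53, adjusted p = 0.0158). The control values were widely spread, and the call was lost without dKO 3 or control 2 (adjusted p up to 0.0545). Cntfr, the receptor gene of ciliary neurotrophic factor, measured 6.75, 7.37 and 7.06 in dKO samples, against 5.86, 5.44 and 6.20 in control samples (change 1.23, SE 0.23, adjusted p = 0.00708). Clcf1, which encodes a cytokine that binds this receptor, rose by 0.69 (adjusted p = 0.0225), a call lost without dKO 1, dKO 2, control 1 or control 3 (adjusted p up to 0.0759). Lifr, the Lif receptor gene, rose by 0.56 (adjusted p = 0.0245), a call lost without dKO 1, dKO 2 or any 1 control array, with the replicate block, with probe sets averaged and with centred arrays (adjusted p up to 0.0866). It was named after its values were seen. Il6st changed by 0.27 (SE 0.21, adjusted p = 0.423).

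Some markers of other nerve cells were also higher in dKO nerves. The counts below stand beside 12.6% of all genes called higher and 9.38% called lower. Of the 9 fibroblast markers 5 were called higher and 0 lower, with summed levels of 15.67 to 15.75 in dKO and 15.42 to 15.55 in control nerves. Of the 9 pericyte and smooth muscle markers 3 were called higher, with 11.95 to 12.39 in dKO and 11.55 to 11.67 in control nerves. The perineurial list had 1 of 4 called higher, the skeletal muscle list 1 of 6, and the Schwann cell lineage list 3 higher and 2 lower of 10. Of 3 adipocyte markers tested 1 was called, Fabp4, which endothelial cells also express, with summed levels of 12.17 to 12.88 in dKO and 9.36 to 10.92 in control nerves. The sum is nearly all Fabp4, which changed by 2.30, while Cidec and Retn changed by -0.28 and -0.29 without passing and Adipoq was under the limit. The part of these cells in the changes of the gp130 family genes was not tested.

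Of 19 JAK, STAT and SOCS genes tested, 2 were called higher and 1 lower (against 12.6% and 9.38% of all genes), with a median of 0.11. Socs2 and Socs3 encode feedback inhibitors of cytokine receptors. Socs3 measured 6.71, 6.53 and 7.14 in dKO samples, against 5.50, 6.14 and 5.39 in control samples (change 1.12, SE 0.24, adjusted p = 0.0126). Socs2 measured 9.01, 9.12 and 9.52 in dKO samples, against 7.86, 8.18 and 8.19 in control samples (change 1.14, SE 0.18, adjusted p = 0.00330). Both were separated between the groups, and both calls were kept in every alternative run. The kinase gene Tyk2 fell by 0.58 (adjusted p = 0.0415), a call lost without dKO 1, dKO 2, control 1 or control 2, with probe sets averaged, with an intensity trend and with the replicate block (adjusted p up to 0.394).

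The IL-1 receptor to NF-kB list had 7 of 21 tested genes called, against 22.0% of all genes. Of the 7, 2 were higher and 5 lower (against 12.6% and 9.38% of all genes), and the median change of the list was -0.13. Irak3, a kinase-like inhibitor of this pathway, measured 4.94, 4.88 and 5.34 in dKO samples, against 3.34, 4.16 and 4.09 in control samples (change 1.19, SE 0.24, adjusted p = 0.0103). Nfkbib, an inhibitor that retains NF-kB in the cytoplasm, measured 6.71, 6.56 and 6.79 in dKO samples, against 7.62, 7.80 and 7.42 in control samples (change -0.93, SE 0.15, adjusted p = 0.00385). It was not called with its probe sets averaged (adjusted p = 0.133). The other inhibitor Nfkbie rose by 0.87 (adjusted p = 0.0430), Tnfaip3, which encodes the inhibitor A20, fell by 0.78 (0.0336), and Rela, which encodes the p65 subunit, fell by 0.73 (0.0452). The adaptor genes Tab1 and Traf2, named after their values were seen, fell by 0.60 and 0.65. Each of these last 5 calls was lost in 5 to 7 of the alternatives, and with the replicate block 2 genes of the list were called.

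Of 10 tested genes of CSF and TNF ligands and receptors, 1 was called higher and 1 lower (against 12.6% and 9.38% of all genes). The median was 0.12. Tnfrsf1a, the main TNF receptor gene, measured 8.55, 8.71 and 8.77 in dKO samples, against 7.73, 7.92 and 7.85 in control samples (change 0.85, SE 0.14, adjusted p = 0.00368). Tnfrsf11b, which encodes the decoy receptor osteoprotegerin, fell by 0.56 (adjusted p = 0.0213), a call lost without dKO 1, dKO 2, control 1 or control 3 and with the replicate block (adjusted p up to 0.0703).

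Of 14 tested genes of atypical and other chemokines, 2 were called higher and 1 lower (against 12.6% and 9.38% of all genes). The median was 0.08. Mif, which encodes a cytokine that also binds Cxcr4, measured 10.59, 10.81 and 10.77 in dKO samples, against 9.78, 9.79 and 9.73 in control samples (change 0.96, SE 0.13, adjusted p = 0.00176), but it was not called with its probe sets averaged (adjusted p = 0.214). Dpp4, a peptidase that trims chemokines such as Cxcl12, rose by 1.07 (adjusted p = 0.0211), a call lost without dKO 1 or dKO 3 (adjusted p up to 0.0656). Ackr1, the Duffy chemokine receptor of venules, fell by 1.02 (adjusted p = 0.0248), a call lost without dKO 1, dKO 2 or control 2 (adjusted p up to 0.0821). Of the 10 endothelial markers 1 was called, lower (against 9.38% of all genes called lower): Vwf changed by -1.52. Of these 10 markers 8 had positive changes (against 7352 of 14550 genes), none of them called. Groups did not overlap for 3 of the 10 (against 40.9% of all genes). These were Vwf, Tek (1.12, adjusted p = 0.114) and Pecam1 (0.66, adjusted p = 0.117). The summed level of the list was 10.54 to 11.05 in dKO and 10.44 to 10.66 in control nerves.

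**Figure D5:**
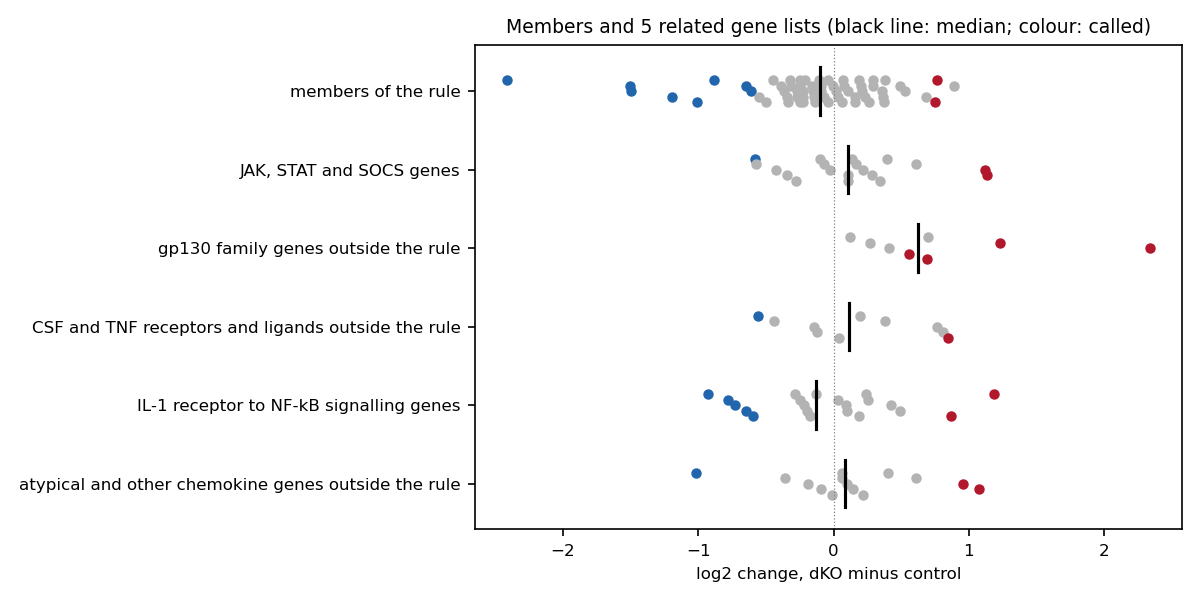
Change in dKO minus control nerves (log2, horizontal axis) of the tested members and of 5 lists of related genes. Each point is 1 gene, coloured where called, and black lines are medians, which run from -0.13 for the NF-kB list to 0.62 for the gp130 family list.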

How the data were processed

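The authors hybridised total RNA from each sample to an Affymetrix array, and the submitters' processing notes name GCOS 1.2 and GCRMA with no further settings. The deposited values are on a log2 scale, a reading taken from their range of 1.66 to 14.94, and their distribution was nearly the same on all 6 arrays. No file gives counts or depth, so the precision is limited by the number of arrays. Of 45101 probe sets, 34958 had 1 gene symbol in the platform annotation, 932 had several and 9211 were not named, and symbols were updated through the RefSeq table for GRCm38.p6, where 204 IDs were not found. Each gene was represented by the probe set with the highest mean over the 6 arrays and tested if at least 4 on 3 or more arrays. dKO and control were compared with limma 3.58.1 (lmFit and eBayes, R 4.3.3), two-sided, with Benjamini-Hochberg adjustment over all 14550 genes and a threshold of 0.05. Probe sets were fitted apart and adjusted over all probe sets above the limit. Summed marker levels are log2 of the sum of unlogged values. The fit was tested on simulated data. The design text counts 3 mutants and 3 control littermates, and the labels do not say whether nerves were pooled.

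Members and gene lists were chosen with earlier results of these data known. The genes named were the called members, those whose groups did not overlap, the 8 with the highest means, and up to 3 called genes per direction in each list of related genes. Cxcr4, Ccr2, Cxcr3, Ccr9, Ccl2, Ccl6, Cxcl9, Ccl17, Il17d, Il17rc, Il13ra1, Il15ra, Lif, Csf1r, Ackr3, Il6st, Lifr, Traf2, Tab1, Cd4, Kit and the named cell type markers were added after their values were seen. Alternatives were a limit of 6, no limit, averaged probe sets, median-centred arrays, an intensity trend, the replicate number as a block and each array left out in turn. Same-numbered dKO and control arrays had correlations of deviations of 0.039, -0.122 and -0.235, so the numbers were not taken as pairs.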

Additional observations from a re-analysis of the deposited data

How the results depend on the processing

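Of the 10 called members, 7 (Cxcl11, Cxcl14, Il16, Il17b, Il17rb, Il17rd and Il34) kept their call in every alternative in which they were tested. Member calls numbered 4 of 22 with a limit of 6 (2 lower; 1 each among chemokine ligands, interleukins and receptors), where 6 of the called genes were not tested. They numbered 11 of 108 with no limit (adding Il7r) and 9 of 54 with averaged probe sets (Cxcl11 was then under the limit). Centred arrays gave 11 member calls (adding Ccl28) and an intensity trend 10. Over all genes, calls numbered 2979 of 10530 with a limit of 6 and 3156 of 18194 with no limit. With averaged probe sets 3479 of 14047 genes were called, with centred arrays 3243 and with the trend 3346. Leaving out 1 array gave 7 to 9 member calls, with the fewest without control 3, and 2178 to 2916 calls over all genes. Of the member calls 1 to 2 were higher, 2 to 4 were among chemokine ligands and 0 to 1 for Csf1. The replicate block gave 11 (adding Il17d), against 2557 calls over all genes in place of 3198. The median member change was 0.074 with a limit of 6 and -0.178 with centred arrays, which moved all genes by 0.076, and it was between -0.168 and -0.009 with 1 array left out, nearest 0 without dKO 1. Lower calls over all genes numbered 891 to 1331 with 1 array left out, fewest without control 2.

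In the related lists, leaving out 1 array gave 0 to 1 lower JAK, STAT and SOCS calls, 2 to 3 gp130 family calls (all higher), 1 to 2 CSF and TNF calls (0 to 1 lower), 2 to 5 NF-kB calls (1 to 3 higher, 1 to 3 lower) and 1 to 4 atypical chemokine calls (1 to 3 higher, 0 to 1 lower). The replicate block gave 0 lower JAK, STAT and SOCS calls, 1 CSF and TNF call (0 lower) and 2 NF-kB calls (1 in each direction). The intensity trend gave 0 lower JAK, STAT and SOCS calls. A limit of 6 or averaged probe sets each gave 1 CSF and TNF call (0 lower), and averaging also gave 3 lower NF-kB calls and 1 higher and 2 lower atypical chemokine calls. Signs turned for 5 genes that were not called: Ccl25 (-0.321 averaged, -0.044 centred, -0.111 to 0.152 with 1 array left out, negative without dKO 3), Cxcr4 (-0.101 to 0.384, negative without dKO 3), Ccr9 (-0.056 centred, -0.075 to 0.109, negative without dKO 3 or, at -0.070, without control 3), Cxcl9 (-0.077 to 0.218, negative without control 1 or, at -0.018, without dKO 3) and Il15ra (-0.015 to 0.445, negative without dKO 2). Except where a gene was not tested, the cause was not tested. Values near the limit of 4 carry little signal over background. That bounds what can be said of Il34, Ccl22, Cxcl17, the dKO level of Cxcl11 and the 46 members below the limit.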
